A study of Homo sapiens with 2 samples.

Results

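The 88 genes described here carry the names of cytosolic ribosomal proteins, among the 20263 genes listed in each deposited table. They were chosen by name alone: RPL or RPS followed by a digit, or RPLP0, RPLP1, RPLP2 or RPSA. The 10 RPS6K kinases and 3 hyphenated names of readthrough genes were left out. Of the 88 genes, 53 belonged to the large subunit and 34 to the small subunit. RPS19BP1, which the name rule also takes in, encodes a protein that binds RPS19 and was put in neither subunit. The set held 77 core ribosomal proteins and 10 paralogs, which are duplicated relatives of a core gene. The label of the set fitted its content except for RPS19BP1.

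RNA sequencing compared 2 cultures of Cal-27, an established oral squamous carcinoma line whose source tissue was tongue. One was stably transduced with an shRNA against HIPK2 in the GV-248 vector (sh-HIPK2), and the other with a scrambled control shRNA (sh-scramble). Both were grown in DMEM with serum, and HIPK2 encodes a nuclear serine/threonine kinase. Each group held 1 library, so every value compares these libraries, no spread between cultures could be estimated and no p-value is given. Brackets hold 95% intervals that cover counting error alone. Pool or clone origin of the transduced cells was not given in the sources used here.

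Ribosomal proteins assemble with ribosomal RNA in the nucleolus into a small subunit, which decodes the mRNA, and a large subunit, which joins amino acids. Cells need them in nearly equal numbers, and their mRNAs share a terminal oligopyrimidine (TOP) start that lets growth signals through the kinase mTOR govern their translation. Proliferating cells such as those of a carcinoma line keep these mRNAs among their most abundant. Many of the genes have processed pseudogenes elsewhere in the genome, and many host small nucleolar RNAs in their introns.

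The library labelled sh-HIPK2 held 26450251 counts and the sh-scramble library 28064923 counts. HIPK2 itself had 218 counts in the library labelled sh-HIPK2 and 110 counts in the sh-scramble library, a ratio of 2.01 (1.59 to 2.55) in CPM, the count scaled by library depth. In the authors' deposited TPM, which also divides by transcript length, it had 0.873 in the library labelled sh-HIPK2 and 1.63 in the sh-scramble library. With 1 added to each value, its log2 ratio of the library labelled sh-HIPK2 over sh-scramble was 0.85 in CPM and -0.49 in TPM. The counts of the targeted gene therefore went against the label while its TPM went with it, and a decrease of HIPK2 was not established. All 8 squamous keratinocyte markers looked at were detected, between 1.63 and 2554 CPM in the library labelled sh-HIPK2 and between 4.30 and 2766 CPM in the sh-scramble library. Of these 8, 6 were lower and 2 higher by any amount in the library labelled sh-HIPK2. KRT14 was 7.13-fold lower (5.19 to 10.0) and CDH1 2.11-fold lower (2.01 to 2.22) in CPM. The 14 markers of leukocytes, fibroblasts, endothelium and melanocytes summed to 73.4 CPM in the library labelled sh-HIPK2 and 99.3 CPM in the sh-scramble library. Of those 14 markers, 5 had no count in the library labelled sh-HIPK2 and 7 had none in the sh-scramble library, among them PTPRC, CD3E and PECAM1 in both. CDH5, an endothelial cadherin, had the highest CPM of the 14 in each library, 27.3 CPM in the library labelled sh-HIPK2 and 55.2 CPM in the sh-scramble library. The part of other cell types in the results was not tested.

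The TOP start was looked for in the promoter windows of RefSeq (GRCh38.p14), each holding 250 bases before and 50 bases after a transcription start. Of the 88 genes, 70 had a window and 59 had a single listed start, of which the core genes and expressed paralogs were used here. A start was counted as TOP when the first transcribed base was C and the next 4 bases or more were each C or T, on the transcribed strand. It was present in 40 of 52 core genes (76.9%) and in 1 of 4 expressed paralogs. It was also present in 5.11% of 6443 other expressed genes and in 3.98% of 22114 genes of any kind with a single start. The sequences that follow run 5′ to 3′ from 20 bases before to 10 bases after the start, so that the first transcribed base is the base after the first 20. They are shown because they come from both ends of the expression ratios among the core genes with a TOP start. Capitals mark the run of C and T that crosses the start.
RPL22: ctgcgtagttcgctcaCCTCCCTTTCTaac
RPS24: ttggccggcgaatcgtggTTCTCTTTTCCT
RPL35A: ccacgcggcggggcctcgTCCTTCTCTTac
RPL36A: ttccgtttgcctcgcggTTTCTTTCTTTCC
RPLP2: gcctcttgcgtcggcgCCTTCCTTTTCCTC
RPL28: tcgcctcgcccctcgCCTTCCTCTTTCCgt
RPS21: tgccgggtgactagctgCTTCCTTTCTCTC
The first 4 genes were lower and the last 3 were higher in the library labelled sh-HIPK2 than in the sh-scramble library, and all 7 had the TOP start. RPL22 lay at chr1:6199586-6199615 on the minus strand, RPS24 at chr10:78033843-78033872 on the plus strand, RPL35A at chr3:197950170-197950199 on the plus strand and RPL36A at chrX:101390991-101391020 on the plus strand. RPLP2 lay at chr11:809947-809976, RPL28 at chr19:55385912-55385941 and RPS21 at chr20:62387083-62387112, all on the plus strand.

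The listed start did not meet the TOP definition in 12 core genes and in 3 expressed paralogs. The start of the paralog RPL10L, which was not expressed, began with G and did not meet it either. The following starts are shown for contrast and have no capitals where the first transcribed base was A or G, beside that of RPL22L1, the paralog that met it.
RPL27: cctcaccggggtgaaaggttagcggaagtg
RPL9: tacaagtacgtaatgacgacagacgttctt
RPS28: ggctctccccgaagcacgtgactcctctcc
RPS27L: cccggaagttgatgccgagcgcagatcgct
RPL7L1: cgcgccggaagtgcggcgccgtagctagga
RPL22L1: gaccgcgcggccgtagCTTCCTCTCTgctc
RPL27 lay at chr17:42998399-42998428 on the plus strand, RPL9 at chr4:39458913-39458942 on the minus strand and RPS28 at chr19:8321476-8321505 on the plus strand. Of the paralogs, RPS27L lay at chr15:63157468-63157497 on the minus strand, RPL7L1 at chr6:42879596-42879625 on the plus strand and RPL22L1 at chr3:170870186-170870215 on the minus strand. RPL22L1 was the single paralog of the 4 with the TOP start, and RPS27L and RPL7L1 began with G. A looser search, for C and at least 6 bases of C or T starting within 10 bases of the listed start, found 45 of 52 core genes (86.5%) and 13.1% of other expressed genes.

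Fixed motifs were searched on both strands of the 300-base windows of the same genes. CGGAAG, the core of sites bound by ETS factors, was in 65.4% of core windows, 36.4% of windows of other expressed genes and 19.7% of all windows. AAGATGG, which can overlap a start codon and forms part of YY1 sites, was in 15.4% of core windows, 8.32% of windows of other expressed genes and 6.25% of all. GGGCGG, the SP1 box, was in 59.6% of core windows, 74.9% of windows of other expressed genes and 43.0% of all. TATAAA was in 9.62% of core windows, 4.64% of windows of other expressed genes and 12.7% of all. CACGTG, the E-box bound by MYC, was in 2 of 52 core windows, that of RPS28 included, in 10.8% of windows of other expressed genes and in 7.28% of all. The median log2 CPM ratio was -0.077 over the 40 core genes with a TOP start and -0.14 over the 12 without. By subunit, 24 of 30 large-subunit and 16 of 22 small-subunit core genes had a TOP start, so each median without it rests on few genes. These medians lay on opposite sides: -0.076 with and -0.30 without a TOP start in the large subunit, and -0.077 with and 0.145 without in the small subunit. These matches describe letters in a window and are not measured sites.

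Ribosomal proteins took a nearly equal share of both libraries. The 88 genes held 9.82% (9.81 to 9.83) of the counts in the library labelled sh-HIPK2 and 9.76% (9.75 to 9.78) in the sh-scramble library. Per length, they held 17.7% of the TPM in the library labelled sh-HIPK2 and 17.25% in the sh-scramble library. The large subunit took 5.75% of counts in the library labelled sh-HIPK2 and 5.74% in the sh-scramble library, and the small subunit 4.05% in the library labelled sh-HIPK2 and 4.0% in the sh-scramble library. In such bulk RNA, fewer cells of a kind and less RNA per cell cannot be told apart. Core genes were deeply counted, between 3599 and 136806 counts each in the library labelled sh-HIPK2 and between 4555 and 137329 counts each in the sh-scramble library.

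Detection was set at 1 CPM in either library, which 84 of the 88 genes and 11813 of all genes reached and which is meant by expressed. Of the other 4, RPL10L, a testis gene without introns, had no count in either library, which allows up to 0.111 CPM in the library labelled sh-HIPK2 and 0.109 CPM in the sh-scramble library. RPL3L, a striated muscle paralog, had 8 counts in the library labelled sh-HIPK2 and 2 counts in the sh-scramble library. The Y-linked paralogs RPS4Y1 and RPS4Y2 are counted among the 88 and given no value. Log2 ratios are of CPM + 1 or TPM + 1 in the library labelled sh-HIPK2 over sh-scramble, and other ratios are of the CPM without the added 1.

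The 84 expressed genes were spread narrowly around the centre of all genes. Of them, 32 were higher and 52 lower by any amount in the library labelled sh-HIPK2, where 50.0% of all expressed genes were higher and 50.0% lower. The median log2 CPM ratio was -0.090, against 0.0002 over all expressed genes. A log2 ratio of 0.32, which is a ratio of 5 to 4, was reached by 6 genes in the higher direction, where the share over all expressed genes was 22.6%, and by 13 in the lower direction, where it was 23.0%. At 1.5-fold, 1 gene was higher (RPL7L1) and 1 lower (RPS27L), both paralogs, against 10.6% and 9.96% of all expressed genes. None of the 84 differed by 2-fold, against 3.26% higher and 2.87% lower over all expressed genes. Among the 2069 genes that reached 100 CPM, a level closer to that of ribosomal proteins, 234 reached a log2 ratio of 0.32 in the higher direction and 491 in the lower direction, with a median of -0.067. The standard deviation over genes was 0.25 for the 84 genes, 0.43 for the genes at 100 CPM and 0.56 for all expressed genes. Within 1.1-fold lay 36 of the 84 genes, and 25.8% of all expressed genes.

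**Figure D1:**
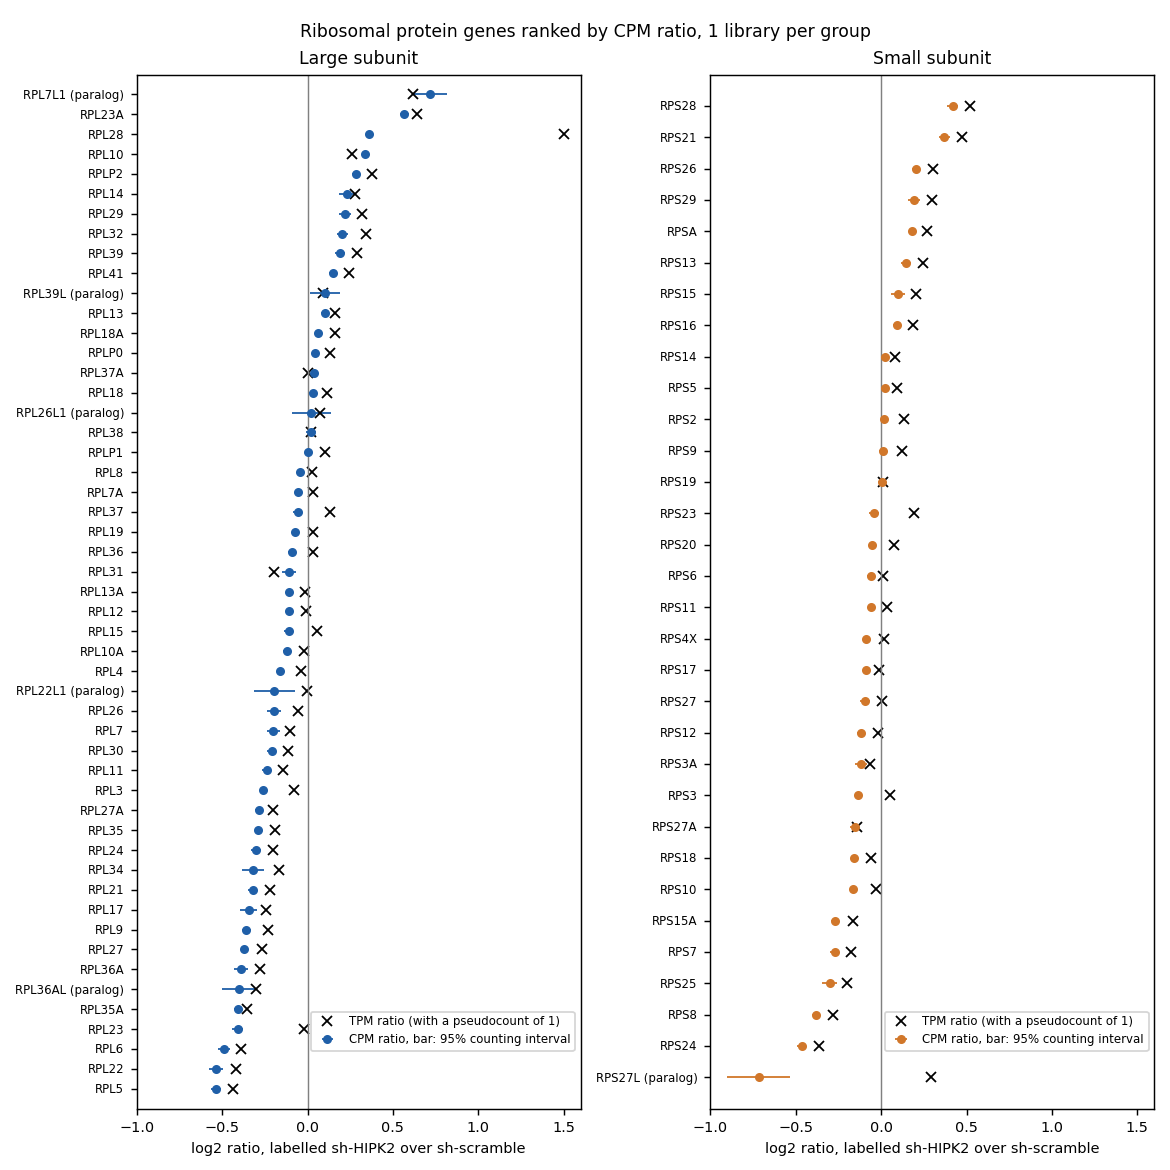
Log2 ratio of each expressed ribosomal protein gene, library labelled sh-HIPK2 over sh-scramble, for the large subunit (left) and the small subunit (right), ranked by CPM ratio. Points are CPM ratios with 95% counting intervals and crosses are TPM ratios; CPM points run from RPL7L1 at the top to RPL5 at the bottom on the left and from RPS28 to RPS27L on the right, and the RPL28 cross stands far right of its point.

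The large and small subunits had similar centres, with signs that depended on the unit and the scaling. The median log2 CPM ratio was -0.11 over 51 large-subunit genes and -0.061 over 32 small-subunit genes. In TPM the median was -0.0024 for the large subunit and 0.043 for the small subunit, against 0.077 over all expressed genes. The small-subunit median was 0.0046 without TMM factors and 0.010 with upper-quartile factors, so its sign was not fixed. A log2 CPM ratio of 0.32 was passed upward by 4 large-subunit genes and downward by 10. It was passed upward by 2 small-subunit genes and downward by 3. The interquartile range was -0.30 to 0.051 in the large subunit and -0.16 to 0.039 in the small subunit, so the small-subunit range lay inside the other. Per length, the median level was 1568 TPM in the library labelled sh-HIPK2 and 1563 TPM in the sh-scramble library for the large subunit. For the small subunit it was 2438 TPM in the library labelled sh-HIPK2 and 2328 TPM in the sh-scramble library.

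The core genes with the lowest ratios were mostly of the large subunit. RPL5 (ENSG00000122406, chromosome 1, 92832025 to 92841924, plus strand, GRCh38) carries 5S ribosomal RNA into the subunit and can bind MDM2, the ubiquitin ligase of p53. It had 551.9 CPM in the library labelled sh-HIPK2 and 800.3 CPM in the sh-scramble library, 1.45-fold lower (1.42 to 1.48), and its log2 TPM ratio was -0.44. RPL11, its partner in the 5S particle, had 878 CPM in the library labelled sh-HIPK2 and 1037 CPM in the sh-scramble library, 1.18-fold lower (1.16 to 1.2). Both members of the 5S particle were thus lower, in CPM and in TPM. RPL22 (chromosome 1, 6181269 to 6209389, minus strand), a protein near the exit of the peptide tunnel, had 329 CPM in the library labelled sh-HIPK2 and 478 CPM in the sh-scramble library, 1.45-fold lower (1.41 to 1.49). RPL6, a large-subunit protein found in eukaryotes, had 429 CPM in the library labelled sh-HIPK2 and 602 CPM in the sh-scramble library, 1.40-fold lower (1.37 to 1.44). The exons of RPL5, RPL22 and RPL6 overlap a gene on the opposite strand in GENCODE 29 (FAM69A, RNF207 and PTPN11), so reads could be exchanged if the counting ignored strand.

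RPS24 was the lowest core gene of the small subunit. Its loss of function causes Diamond-Blackfan anaemia, an inherited failure of red cell production. It had 713 CPM in the library labelled sh-HIPK2 and 984 CPM in the sh-scramble library, 1.38-fold lower (1.36 to 1.41), with a log2 TPM ratio of -0.37. RPL35A, another gene of that disease, had 1120 CPM in the library labelled sh-HIPK2 and 1486 CPM in the sh-scramble library, 1.33-fold lower (1.31 to 1.35). Of the 20 ribosomal protein genes listed for Diamond-Blackfan anaemia, 15 were lower and 5 higher by any amount in CPM, with a median of -0.14. In TPM 12 were lower and 8 higher, with a median of -0.043. Of all 77 core genes, 48 were lower and 29 higher in CPM, and 35 lower and 42 higher in TPM. Over all expressed genes, 50.0% were lower in CPM and 42.2% in TPM. Past 0.32 in log2 CPM, 4 of the 20 were lower and 1 higher, beside the shares of 23.0% and 22.6% of all expressed genes. RPS19, the gene most often mutated in the disease, had 1215 CPM in the library labelled sh-HIPK2 and 1213 CPM in the sh-scramble library, a ratio of 1.001 (0.986 to 1.02).

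Genes of both subunits stood at the other end of the ranking. RPL23A (ENSG00000198242, chromosome 17, 28719393 to 28724359, plus strand) sits beside the tunnel exit, where the signal recognition particle docks. It had 1285 CPM in the library labelled sh-HIPK2 and 867 CPM in the sh-scramble library, 1.48 times higher (1.46 to 1.51), the highest ratio of a core gene in CPM. Its log2 TPM ratio was 0.64. It also had the most pseudogenes, with 91 carrying its name in GENCODE 29, and its exons overlap TLCD1 on the opposite strand, so reads may be shared. RPS28 (chromosome 19, 8321500 to 8323340, plus strand), found where the mRNA leaves the small subunit, had 613 CPM in the library labelled sh-HIPK2 and 459 CPM in the sh-scramble library, 1.34 times higher (1.31 to 1.37). Its single annotated coding transcript overlaps NDUFA7 and KANK3 on the opposite strand. RPS21 (chromosome 20, 62387116 to 62388520, plus strand), a small-subunit protein found in eukaryotes, had 709.6 CPM in the library labelled sh-HIPK2 and 549 CPM in the sh-scramble library, 1.29 times higher (1.27 to 1.32). RPL10, which completes the region of the peptidyl transferase centre late in assembly, had 2349 CPM in the library labelled sh-HIPK2 and 1860.2 CPM in the sh-scramble library, 1.26 times higher (1.248 to 1.28). RPL14 had 297 CPM in the library labelled sh-HIPK2 and 253 CPM in the sh-scramble library, 1.17 times higher (1.14 to 1.21).

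By place in the ribosome, every site listed here apart from the 5S particle held genes of both directions. The stalk recruits elongation factors to the large subunit. Its protein RPLP2 had 1568 CPM in the library labelled sh-HIPK2 and 1290.1 CPM in the sh-scramble library, 1.21 times higher (1.2 to 1.23). Its dimer partner RPLP1 had 3794 CPM in the library labelled sh-HIPK2 and 3790.4 CPM in the sh-scramble library, and the interval of its ratio was 0.992 to 1.01. RPLP0, the base of the stalk, had 3257 CPM in the library labelled sh-HIPK2 and 3165 CPM in the sh-scramble library. RPL12, which binds beside RPLP0, was 1.08-fold lower (1.06 to 1.09). The 5 genes listed for the peptidyl transferase centre had a median of -0.12, with RPL10 at 0.34 and RPL3, whose loop reaches that centre, at -0.26. The 9 genes of the tunnel exit had a median of -0.11, from RPL22 at -0.54 to RPL23A at 0.57, with RPL35 at -0.29 and RPL17 at -0.34. The 9 small-subunit genes along the mRNA channel had a median of 0.020 in CPM and 0.19 in TPM, with RPS28 at 0.42, RPS26 at 0.20, RPSA at 0.18 and RPS10 at -0.16 in CPM. The 8 genes of the head of the small subunit had a median of -0.070, with RPS25 at -0.30, RPS29 at 0.19, RPS12 at -0.12 and RPS18 at -0.16. RPS6, the small-subunit protein that is phosphorylated by S6 kinases, had 1291 CPM in the library labelled sh-HIPK2 and 1346 CPM in the sh-scramble library.

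The 6 expressed paralogs lay at lower levels than the core genes, with a standard deviation of log2 CPM ratios over genes of 0.48 against 0.23 in the core. RPL7L1, a relative of RPL7 whose yeast counterpart acts in large-subunit assembly, had 86.7 CPM in the library labelled sh-HIPK2 and 52.6 CPM in the sh-scramble library, 1.65 times higher (1.54 to 1.76). RPL7 itself was 1.15-fold lower (1.12 to 1.18), so RPL7L1 made 6.48% of the TPM of the pair in the library labelled sh-HIPK2 and 3.98% in the sh-scramble library. RPL22L1 had 38.8 CPM in the library labelled sh-HIPK2 and 44.4 CPM in the sh-scramble library, 1.14-fold lower (1.05 to 1.24), and made 18.4% of the pair's TPM in the library labelled sh-HIPK2 and 14.4% in the sh-scramble library, beside the lower RPL22. RPL36AL had 55.7 CPM in the library labelled sh-HIPK2 and 73.6 CPM in the sh-scramble library, 1.32-fold lower (1.24 to 1.41), close to its relative RPL36A at 1.31-fold lower (1.27 to 1.35). RPL26L1 had 45.9 CPM in the library labelled sh-HIPK2 and 45.3 CPM in the sh-scramble library, with an interval of 0.937 to 1.1. RPL39L, best known from testis, had 81.9 CPM in the library labelled sh-HIPK2 and 76.2 CPM in the sh-scramble library, a ratio of 1.07 (1.01 to 1.14), and its relative RPL39 a ratio of 1.14 (1.12 to 1.16). RPL3L made under 0.01% of the TPM of the RPL3 pair in each library. RPS19BP1, the gene in neither subunit, had 199 CPM in the library labelled sh-HIPK2 and 227 CPM in the sh-scramble library, 1.14-fold lower (1.1 to 1.18). Reads of these pairs, and of the core genes and their pseudogenes, may have been exchanged, because the treatment of multiply matching reads was not given in the sources used here.

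RPS27L, which p53 can induce, gave opposite answers in the deposited units. It had 14.8 CPM in the library labelled sh-HIPK2 and 24.3 CPM in the sh-scramble library, 1.64-fold lower (1.45 to 1.87). In TPM it had 9.26 in the library labelled sh-HIPK2 and 7.39 in the sh-scramble library, a log2 ratio of 0.29. The transcript length implied by its count and FPKM was 2389 bases in the library labelled sh-HIPK2 and 4593 bases in the sh-scramble library, within the 528 to 6434 bases of its 6 coding transcripts in GENCODE 29. Its relative RPS27, with a single annotated coding transcript, had 655 CPM in the library labelled sh-HIPK2 and 699 CPM in the sh-scramble library.

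**Figure D2:**
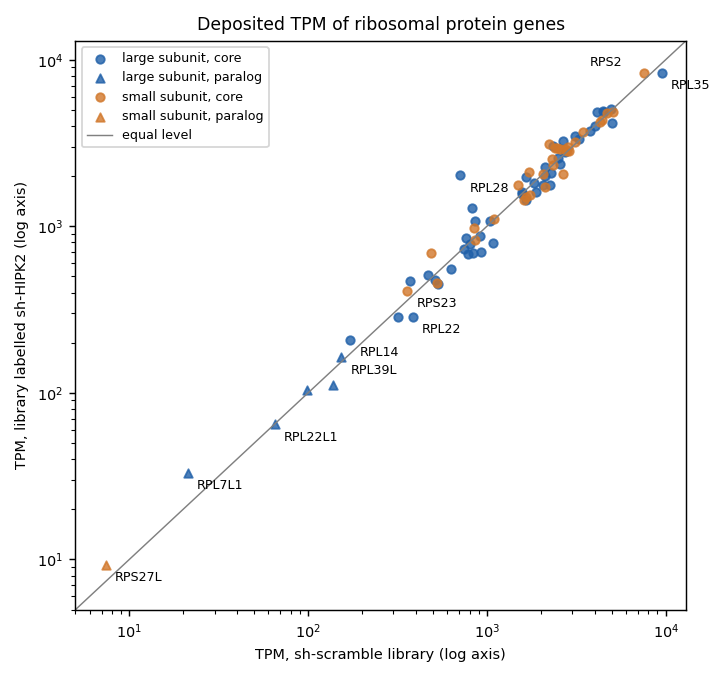
Deposited TPM of the expressed ribosomal protein genes in the library labelled sh-HIPK2 (vertical) and the sh-scramble library (horizontal), both on log axes, with core genes as circles and paralogs as triangles. Core genes cluster along the line of equal level, RPL28 lies above it with 2021 TPM in the library labelled sh-HIPK2 and 712 TPM in the sh-scramble library, and the 6 paralogs lie below all core genes.

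RNA levels per length differed widely between proteins that the ribosome needs in nearly equal numbers. Over the 77 core genes, TPM ran from 208.4 to 8351 in the library labelled sh-HIPK2 and from 172 to 9525 in the sh-scramble library. That is a 40.1-fold range in the library labelled sh-HIPK2 and a 55.4-fold range in the sh-scramble library. The coefficient of variation was 73.1% in the library labelled sh-HIPK2 and 75.1% in the sh-scramble library. The highest levels were those of RPL35, a tunnel-exit protein, with 8351 TPM in the library labelled sh-HIPK2 and 9525 TPM in the sh-scramble library, and of RPS2, at the mRNA entry, with 8319 TPM in the library labelled sh-HIPK2 and 7581 TPM in the sh-scramble library. RPS18 had 4875 TPM in the library labelled sh-HIPK2 and 5083 TPM in the sh-scramble library, RPL27 had 4152 TPM in the library labelled sh-HIPK2 and 4996 TPM in the sh-scramble library, and RPL7A had 5029.6 TPM in the library labelled sh-HIPK2 and 4917 TPM in the sh-scramble library. At the low end of the core were RPL14 with 208.4 TPM in the library labelled sh-HIPK2 and 172 TPM in the sh-scramble library, and RPL34 with 284 TPM in the library labelled sh-HIPK2 and 319 TPM in the sh-scramble library. The order of the core genes hardly differed between the libraries, with a Spearman rho of 0.965 and a Pearson r of 0.973 of log2 TPM over 77 genes, which share libraries, depth and transcript lengths.

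The TPM of a gene also rests on the transcript length by which its count was divided. The implied length exceeded 2000 bases in the sh-scramble library for 8 core genes (RPL4, RPL13, RPL14, RPL27A, RPL28, RPL32, RPL37 and RPS23). Their median was 596 TPM in the library labelled sh-HIPK2 and 589 TPM in the sh-scramble library. The other 69 core genes had a median of 2077 TPM in the library labelled sh-HIPK2 and 2238 TPM in the sh-scramble library. RPS23, a protein of the decoding centre, had an implied length of 2731 bases in the library labelled sh-HIPK2 and 2997 bases in the sh-scramble library, while its annotated coding transcripts run from 443 to 3437 bases. Its level was 410.3 TPM in the library labelled sh-HIPK2 and 359 TPM in the sh-scramble library, and its depth-scaled count was 748 CPM in the library labelled sh-HIPK2 and 771 CPM in the sh-scramble library. TPM is the count divided by this length, so a lower TPM at a longer implied length is built into the unit.

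CPM and TPM gave the same picture for most genes after a constant shift. The log2 TPM ratio exceeded the log2 CPM ratio by a median of 0.10 over the 84 genes. Of the 84, 66 lay within 0.05 of that shift, against 45.1% of all expressed genes. The CPM carried TMM factors and the deposited TPM did not, so the shift holds both scaling and division by length. The median log2 CPM ratio of the 84 genes was -0.090 with TMM factors and -0.024 without them, against 0.012 in TPM. Both units gave a higher value for 32 genes and a lower one for 38. Another 14 genes were lower in CPM with TMM factors and higher in TPM. By any amount, 46 were higher in TPM, where 57.8% of all expressed genes were higher, and 38 were lower, where 42.2% were lower. Past a log2 TPM ratio of 0.32, 7 genes were higher, against 25.9% of all expressed genes, and 5 lower, against 17.2%. At 1.5-fold in TPM, RPL28, RPL23A and RPL7L1 were higher, against 10.6% of all expressed genes, and none of the 84 was lower, against 7.34%. RPL28 was the single gene past 2-fold in TPM, where 2.69% of all expressed genes lay above that size and 2.21% were as far below.

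RPL28 showed the largest gap between the units. RPL28 (ENSG00000108107, chromosome 19, 55385345 to 55403250, plus strand), a large-subunit protein with no counterpart in yeast, had 38479 counts in the library labelled sh-HIPK2 and 30342 counts in the sh-scramble library. Its CPM ratio was 1.29 (1.27 to 1.31), while its TPM was 2021 in the library labelled sh-HIPK2 and 712 in the sh-scramble library, a ratio of 2.84. Its implied length was 1054 bases in the library labelled sh-HIPK2 and 2170 bases in the sh-scramble library, within the 444 to 4796 bases of its 9 coding transcripts. RPL23, a protein at the face between the subunits that can bind MDM2, was 1.33-fold lower in CPM (1.30 to 1.36) but had 733 TPM in the library labelled sh-HIPK2 and 744 TPM in the sh-scramble library. Its implied length was 1085 bases in the library labelled sh-HIPK2 and 1324 bases in the sh-scramble library. RPS3, at the mRNA entry, had a log2 ratio of -0.14 in CPM and 0.051 in TPM, and RPL37 one of -0.058 in CPM and 0.13 in TPM. RPL31 had a longer implied length in the library labelled sh-HIPK2, 928 bases against 815 bases in the sh-scramble library, and a log2 ratio of -0.11 in CPM and -0.19 in TPM. Implied lengths differed by at least 1.1-fold between the libraries for 4 core genes (5.19%) and for 25.7% of other expressed genes.

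**Figure D3:**
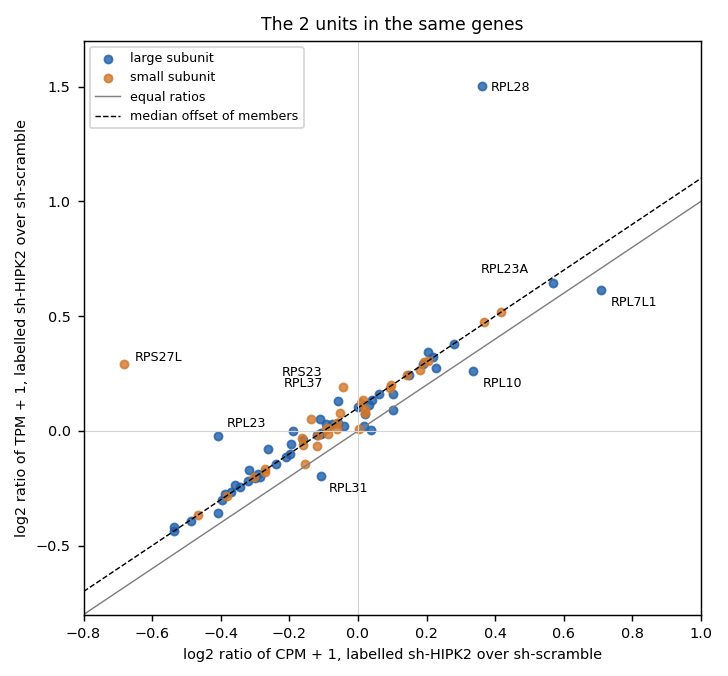
Log2 ratio of TPM + 1 (vertical) against log2 ratio of CPM + 1 (horizontal) for the expressed ribosomal protein genes, library labelled sh-HIPK2 over sh-scramble, with a solid line of equal ratios and a dashed line at the median shift of 0.10. Most genes follow the dashed line, RPL28, RPS27L and RPL23 lie above it, and RPL31, RPL10 and RPL7L1 lie below it.

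The CPM ratio of core genes went with the GC content of their transcripts. GC content was the mean over a gene's coding transcripts in GENCODE 29 and was known for all core genes. In the 26 core genes of lowest GC content (43.7% to 48.8%), 23 were lower and 3 higher in the library labelled sh-HIPK2, with a median log2 CPM ratio of -0.20. In the 26 of middle GC content (48.8% to 53.1%), 17 were lower and 9 higher, with a median of -0.12. In the 25 of highest GC content (53.4% to 62.8%), 8 were lower and 17 higher, with a median of 0.020. Over all expressed genes of any GC content, 50.0% were lower and 50.0% higher. Other expressed genes within the same 3 ranges followed the same order, with medians of -0.11, -0.086 and 0.050. Core medians minus those of other genes in the same range were -0.083, -0.033 and -0.030. The Spearman rho of CPM ratio and GC content was 0.441 over the core genes, 0.479 in the large subunit and 0.385 in the small subunit. It was 0.076 over all expressed genes, which cover a wider range of GC content where the ratio first fell and then rose. Other expressed genes had medians of 0.18 at 36% to 38%, -0.14 at 46% to 48% and 0.11 at 62% to 64%. The rho values therefore cover unlike ranges. These genes share libraries, depth and base composition.

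**Figure D4:**
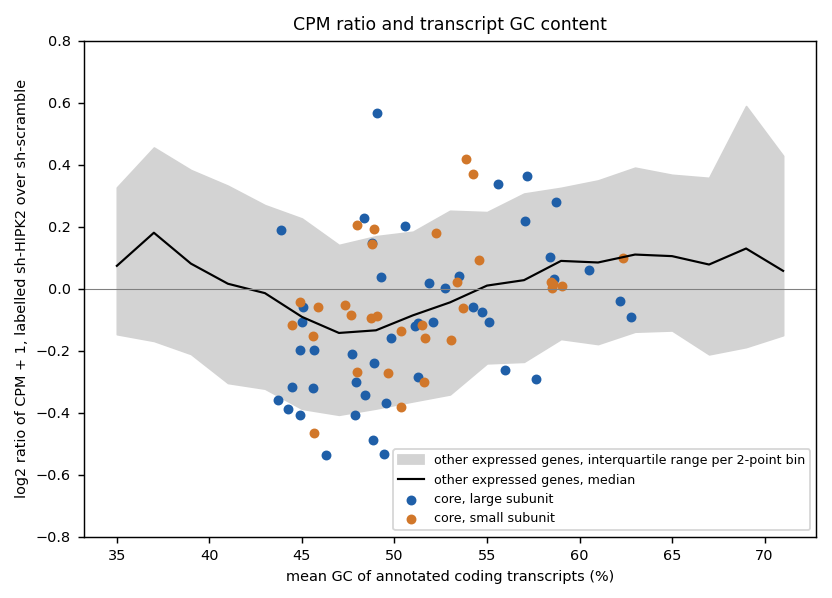
Log2 ratio of CPM + 1 (library labelled sh-HIPK2 over sh-scramble, vertical) against the mean GC content of annotated coding transcripts in percent (horizontal) for core genes of each subunit. The line and band are the median and middle 50% of other expressed genes in bins of 2 points; core medians run from -0.20 in the third of lowest GC content to 0.020 in the third of highest.

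Core genes on chromosome 19 followed the same order. The 12 core genes on chromosome 19, a GC-rich chromosome, had a median GC content of 58.5%, with 9 higher and 3 lower, and a median log2 CPM ratio of 0.0255. The 65 on other chromosomes had a median GC content of 49.1%, with 20 higher and 45 lower, and a median of -0.11. Over all expressed genes of any chromosome, 50.0% were higher and 50.0% lower. The share over all expressed genes of chromosome 19 is not given here. After the trend of all genes over GC content was removed, the medians were -0.028 on chromosome 19 and -0.045 elsewhere. The part of GC content in either result was not tested further. The ratio was nearly unrelated to implied length within the core (rho 0.1 over 77 genes), although longer transcripts had higher ratios over all expressed genes (rho 0.269). The 84 expressed ribosomal protein genes were short, with a median implied length of 819 bases in the sh-scramble library, against 2672 bases over all expressed genes. Their median log2 CPM ratio was -0.090, and 0.043 with the trend of all genes over length removed. The part of length was not tested further.

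Hosts of small nucleolar RNAs were frequent and had nearly the same median as the other core genes. Such RNAs guide the modification of ribosomal RNA and are released from introns. Of the 77 core genes, 28 (36.4%) contained at least 1 annotated small nucleolar RNA gene on the same strand, 60 such RNAs in all, against 1.57% of other expressed genes. The median log2 CPM ratio was -0.085 over the 28 hosts and -0.087 over the 49 others. Hosts made up 19 of 46 large-subunit and 9 of 31 small-subunit core genes. Pseudogenes named after the gene were annotated for 76 of the 77 core genes, 1132 in all, and RPL28 had none. The ratio had a Spearman rho of -0.231 with their number over the 77 genes. Adding the counts of readthrough genes raised the ratios of RPS10 and RPL36A slightly. With RPS10-NUDT3 added, the ratio of RPS10 was 0.912 (0.901 to 0.922), against 0.892 (0.882 to 0.903) without it. With RPL36A-HNRNPH2 added, that of RPL36A was 0.783 (0.761 to 0.806), against 0.763 (0.741 to 0.787). RPL36A-HNRNPH2 had 743 counts beside 7490 of RPL36A in the library labelled sh-HIPK2, and 713 beside 9949 in the sh-scramble library.

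Ribosomal proteins that bear other names included RACK1 and FAU, both higher in the library labelled sh-HIPK2. RACK1, a small-subunit scaffold protein, had 1669 CPM in the library labelled sh-HIPK2 and 1341 CPM in the sh-scramble library, 1.24 times higher (1.23 to 1.26). It had 2523 TPM in the library labelled sh-HIPK2 and 1529 TPM in the sh-scramble library. The log2 ratio of RACK1 was thus 0.315 in CPM and 0.72 in TPM. FAU, which encodes a small-subunit protein fused to a ubiquitin-like one, was 1.07 times higher (1.05 to 1.09). RPS27A, which encodes a small-subunit protein fused to ubiquitin, was 1.11-fold lower (1.09 to 1.13), at 817 CPM in the library labelled sh-HIPK2 and 909 CPM in the sh-scramble library.

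Other genes with TOP mRNAs and the factors that build or control ribosomes were mixed. Of 24 listed TOP genes outside the ribosomal proteins, 11 were higher and 13 lower by any amount, with a median of -0.031. Past 0.32 lay 3 of the 24, against 22.6% of all expressed genes, and past -0.32 lay 2, against 23.0%. EEF1B2, an exchange factor of elongation factor 1, was 1.48-fold lower (1.44 to 1.53), and the growth-linked TPT1 was 1.62-fold lower (1.59 to 1.65). NACA, which binds new peptides at the tunnel exit, was 1.47 times higher (1.41 to 1.53), while VIM was 4.11 times higher (2.43 to 7.32) from 18 counts in the sh-scramble library. Of 79 expressed ribosome assembly genes, 6 lay past 0.32, against 22.6% of all expressed genes, and 25 past -0.32, against 23.0%. Their median was -0.092 in CPM and 0.039 in TPM. NIP7, an assembly factor, was 2.39-fold lower (2.20 to 2.60), POLR1B, a subunit of RNA polymerase I, 2.13-fold lower (1.91 to 2.38) and UTP14A 2.03-fold lower (1.80 to 2.30). UTP20, of small-subunit RNA processing, was 2.499 times higher (2.09 to 3.004). Of 25 expressed genes of the mTOR pathway, S6 kinases and related control, 7 lay past 0.32 and 5 past -0.32, near the 22.6% and 23.0% of all expressed genes, with a median of 0.094. MTOR was 1.45 times higher (1.36 to 1.54), and its activator RHEB was 1.65-fold lower (1.55 to 1.76). MAX, the partner of MYC, was 1.62-fold lower (1.503 to 1.75), and LARP4, which binds poly(A) tails, was 1.58-fold lower (1.35 to 1.85) in CPM with a log2 TPM ratio of -0.069.

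The ribosomal proteins of mitochondria, which build a separate ribosome, had lower ratios than the cytosolic ones. Of 78 such genes, 11 were higher and 67 lower by any amount in CPM, where 50.0% of all expressed genes were lower. Their median log2 ratio was -0.29 in CPM and -0.17 in TPM, against -0.087 and 0.0090 for the 77 cytosolic core genes. Past -0.32 lay 38 of the 78 mitochondrial genes and 11 of the 77 core genes, against 23.0% of all expressed genes. Past 0.32 lay 2 mitochondrial and 5 core genes, against 22.6%. The difference between these sets has no replicate check and was not tested.

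**Figure D5:**
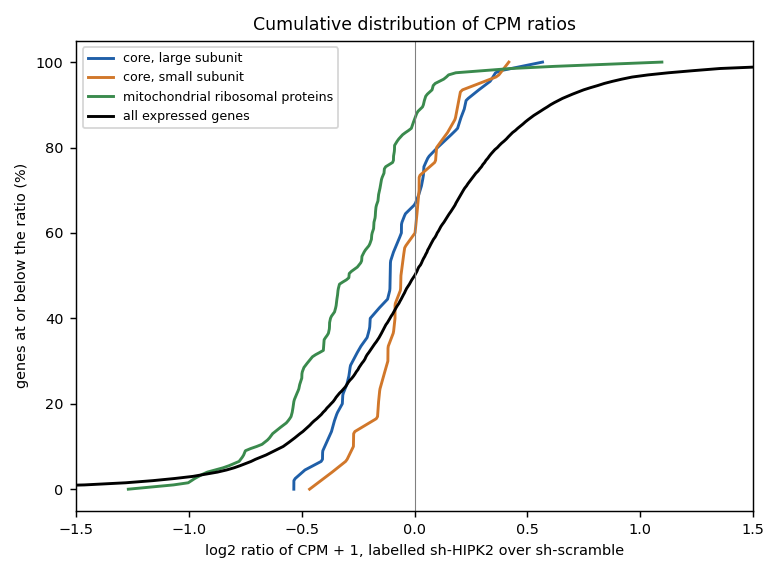
Cumulative share of genes (vertical, percent) at or below each log2 ratio of CPM + 1 (horizontal, library labelled sh-HIPK2 over sh-scramble) for core large-subunit and small-subunit genes, mitochondrial ribosomal proteins and all expressed genes. The core curves are steeper than that of all genes, with standard deviations over genes of 0.25 and 0.20 against 0.56, and the mitochondrial curve lies to the left.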

How the data were processed

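RNA of 1 Cal-27 library per group was measured by paired-end sequencing of 150 bp reads, per the labels' protocols. The tools named were FastQC and the aligner TopHat2 2.1.1, with the build GRCh38, per the submitters' processing notes. The counting tool, its annotation and its use of strand and of multiply matching reads were not given in the sources used here. Per the file headers, the authors deposited a count, a TPM and an FPKM per gene. The deposited counts are whole numbers and not normalized, and the deposited TPM is scaled to a fixed sum. The deposited FPKM served to derive the implied transcript length, scaled so that 1624 expressed genes with 1 coding transcript in GENCODE 29 had a median ratio of 1 to their annotated length.

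CPM was computed with TMM factors of edgeR 4.0.16 in R 4.3.3, 1.02 for the library labelled sh-HIPK2 and 0.977 for the sh-scramble library. With 1 library per group no model was fitted. Log2 ratios carry a pseudocount of 1 CPM or 1 TPM, which understates the ratio of low genes. Ratios of CPM carry 95% exact (Clopper-Pearson) intervals from scipy 1.17.1, conditional on the sum of both counts, and shares carry exact binomial intervals. A count of 0 allows up to 3 counts. Reads without molecular identifiers cannot be counted as molecules, so these limits cover counting error alone.

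The calls past a log2 ratio of 0.32, past 1.5-fold and past 2-fold are rules of size and not tests. Only the 1.5-fold rule was checked on simulated counts, which held counting error and no variation between cultures. Members, role lists and rules were chosen with earlier results of these data known. The genes described singly are the 8 expressed genes at each end of the log2 CPM ratios, the 5 at each end of TPM in sh-scramble, the 6 with the largest difference between units, the paralogs, the stalk and 5S particle genes and up to 4 of each other list. RPS19, RPS6 and other genes outside this rule were added after their values were seen. Of the 20263 gene IDs, 20224 matched GENCODE 29. Promoter windows came from RefSeq (GRCh38.p14). Alternatives were other scalings, pseudocounts, filters, TPM, and removal of trends over length or GC content by lowess (statsmodels 0.14.6). A result on 1 gene of the lists is not reported here.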

Additional observations from a re-analysis of the deposited data

How the results depend on the processing

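Leaving out a replicate could not be done. No paired analysis was possible because there is 1 library on each side. The median log2 CPM ratios of all, large-subunit and small-subunit genes (-0.090, -0.11 and -0.061) moved with the scaling, and moved by less than 0.024, the median half-width of a gene's 95% counting interval, with the pseudocount, the filter, the median-of-ratios factors or the removal of paralogs or RPS19BP1. Without TMM factors they were -0.024, -0.042 and 0.0046, and with upper-quartile factors -0.019, -0.036 and 0.010. In TPM they were 0.012, -0.0024 and 0.043. With the length trend removed they were 0.043, 0.041 and 0.075, and with the GC trend removed, chosen after the data were seen, -0.043, -0.060 and -0.032. Genes past -0.32, 13, became 8 with upper-quartile factors, 5 in TPM and 4 with the length trend removed, where those past 0.32, 6, became 12. The share of counts in the library labelled sh-HIPK2, 9.82%, was 17.7% in TPM and 9.77% for the core alone, and that in the sh-scramble library, 9.76%, was 17.25% in TPM and 9.71% for the core alone. Of 64 values under other settings, 41 kept their direction and moved by less than that width (medians) or by at most 1.5 times (counts of genes, such as 13 becoming 9 without TMM factors). For these changes the cause was not tested. The expressed paralogs rest on fewer counts than the core genes. The lowest, RPS27L, had 400 counts in the library labelled sh-HIPK2 and 667 counts in the sh-scramble library. A single count is worth 0.037 CPM in the library labelled sh-HIPK2 and 0.0365 CPM in the sh-scramble library.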

Other observations

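Listed translation factors outside the TOP list, chiefly of initiation, had more lower than higher genes in CPM, mostly by small amounts. The list also held ETF1 and GSPT1, which act in termination, and ABCE1, which acts in ribosome recycling. Of 30 expressed genes, 9 were higher and 21 lower by any amount in CPM, where 50.0% of all expressed genes were lower. Their median log2 ratio was -0.20 in CPM and -0.073 in TPM. Past 0.32 in size, 4 were higher, against 22.6% of all expressed genes, and 6 lower, against 23.0%. EIF2S1, the regulatory subunit of the factor that brings the initiator tRNA, had 58.9 CPM in the library labelled sh-HIPK2 and 111 CPM in the sh-scramble library, 1.88-fold lower (1.77 to 2.0). EIF4E2, a cap-binding relative of EIF4E, was 1.41-fold lower (1.34 to 1.48), and EIF2B3, a subunit of the exchange factor of that initiation factor, also 1.41-fold lower (1.29 to 1.55). EIF4G3, a scaffold of the cap-binding complex, was 1.69 times higher (1.48 to 1.95).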
